A study of Mus musculus with 6 samples.

Results

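The genes described here encode the proteins that fill, store, fuse and recycle synaptic vesicles, and they were measured in hippocampus of Phf8 KO mice and wild-type (WT) mice. The set holds 44 genes chosen by name, in 5 classes: 17 vesicle proteins, 10 SNAREs and regulators of fusion, 9 active zone proteins, 6 endocytosis proteins and 2 vesicular glutamate transporters. A probe set, the group of oligonucleotides that reads a transcript on the array, was taken as a member when its only gene symbol was on the list. This gave 110 of the 45037 probe sets on the array, of which 96 passed the filter on dim signals, and all 44 genes had at least 1 probe set that passed. KO was compared with WT over 12903 genes, each represented by its brightest probe set, and over 27408 probe sets.

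Phf8 is an X-linked gene for a histone demethylase. The KO samples carried a deletion of exons 7 and 8, the JmjC domain core, and the WT samples were described in the methods as littermates. The deletion was made in embryonic stem cells of another strain with a floxed allele and EIIa-Cre, a Cre line active in the early embryo. The line was then crossed to C57BL/6J for at least 5 generations, and the study used hemizygous males (Phf8 -/Y). The labels give C57BL/6 as background, an age of 10 weeks and hippocampus as tissue for both groups. There were 3 KO arrays and 3 WT arrays, 1 per sample, and the array study asked which transcripts differ in hippocampus that lacks PHF8. The methods can be read as tissue of several mice in a sample, so the number of animals behind an array is not known here, and p-values measure only the spread between these samples.

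At a synapse, vesicles are loaded with transmitter by transporters in their membrane, tethered and primed at the active zone, and fused with the plasma membrane by SNARE proteins when synaptotagmin binds calcium. The vesicle membrane is then retrieved by endocytosis and refilled. In the hippocampus most of these genes are active in all neurons, while some paralogs differ between cell populations: Slc17a7 (VGLUT1) is the vesicular glutamate transporter of cortical and hippocampal excitatory neurons, and Slc17a6 (VGLUT2) that of thalamic and many other subcortical neurons.

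Values are log2 signals, on which a difference of 1 is a 2-fold change. KO replicate 3 gave an array unlike the rest, with correlations across genes, which are not independent replicates, of 0.925 to 0.940 with the other arrays, against 0.976 to 0.987 among the other 5. All 12 measured thalamus markers (of 14 listed) had their highest signal on it, and their median deviation from the WT mean was 0.23, 0.28 and 2.30 on KO replicates 1, 2 and 3. Their summed linear signal was 7395, 7114 and 35353 on the KO arrays, against 5406 to 6137 on the WT arrays. The 7 measured CA1 pyramidal cell markers (of 9) summed to 14150, 15376 and 7918 on the KO arrays and to 13065 to 13292 on the WT arrays. Of these 7, 5 were at their lowest on KO replicate 3 and 1, Wfs1, at its highest. Their median deviation was 0.05, 0.01 and -0.35 on KO replicates 1, 2 and 3. The 8 CA3 pyramidal cell markers summed to 21422, 23484 and 18227 on the KO arrays, against 22827 to 23743 on the WT arrays. On KO replicate 3, 4 of them were at their lowest and 3 at their highest. The dentate granule cell markers and the pan-neuronal genes, 10 of 10 measured in each list, had median differences of -0.30 and -0.03, and of -0.21 and -0.10 without KO replicate 3. Phf8 itself had 8.23, 8.55 and 7.99 on the KO arrays, against 9.90, 9.66 and 9.73 on the WT arrays. Differences are therefore given with all arrays and again without KO replicate 3.

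The promoters of 4 members are shown because these genes carry the widest array-to-array differences or stand for the class. Slc17a6 and Rims3 had KO arrays above all WT arrays, Slc17a7 had the lowest mean difference, and Syn1 is the X-linked vesicle gene with a cyclic AMP response element in its window. The sequences are the 250 bases before the RefSeq start on GRCm38.p6, given 5′ to 3′ on the gene's strand, with CpG dinucleotides in capitals. They lie at chr7:51621580-51621829 on the plus strand for Slc17a6 (the first of its 2 RefSeq starts in the table), chr4:120854549-120854798 on the plus strand for Rims3, chr7:45163671-45163920 on the plus strand for Slc17a7, and chrX:20920919-20921168 on the minus strand for Syn1.
Slc17a6: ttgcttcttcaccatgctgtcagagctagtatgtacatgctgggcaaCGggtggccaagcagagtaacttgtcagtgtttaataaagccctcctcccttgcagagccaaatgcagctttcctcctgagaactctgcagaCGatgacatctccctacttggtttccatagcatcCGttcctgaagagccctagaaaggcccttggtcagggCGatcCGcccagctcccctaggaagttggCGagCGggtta
Rims3: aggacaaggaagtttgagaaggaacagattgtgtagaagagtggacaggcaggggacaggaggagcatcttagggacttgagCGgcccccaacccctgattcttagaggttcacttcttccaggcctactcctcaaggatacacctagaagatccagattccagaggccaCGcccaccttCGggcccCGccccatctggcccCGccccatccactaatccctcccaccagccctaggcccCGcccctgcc
Slc17a7: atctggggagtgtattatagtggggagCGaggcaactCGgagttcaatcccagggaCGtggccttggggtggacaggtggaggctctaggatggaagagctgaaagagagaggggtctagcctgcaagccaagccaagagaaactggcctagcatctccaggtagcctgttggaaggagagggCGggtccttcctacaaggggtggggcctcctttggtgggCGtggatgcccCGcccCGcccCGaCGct
Syn1: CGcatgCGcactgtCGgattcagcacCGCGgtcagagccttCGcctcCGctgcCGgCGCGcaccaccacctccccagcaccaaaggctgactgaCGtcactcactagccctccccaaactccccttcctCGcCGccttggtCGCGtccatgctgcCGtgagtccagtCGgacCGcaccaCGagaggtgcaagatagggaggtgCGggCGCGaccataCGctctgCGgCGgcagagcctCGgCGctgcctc
These windows hold 7 (Slc17a6), 6 (Rims3), 9 (Slc17a7) and 27 (Syn1) CpG dinucleotides. Of the 44 members, 35 had an entry in the RefSeq table, with 45 windows, and these held a median of 15 CpG against 6.0 over all 32851 windows, with a median GC content of 61.2% against 52.4%. The GC box, searched as GGGCGG on both strands, was present in 27 of the 45 member windows, or 60%, against 32.7% of all windows, among them those shown of Slc17a6, Slc17a7 and Rims3. The cyclic AMP response element, searched as TGACGTCA, was in 2 member windows (4.44%, Syn1 and Sh3gl2) against 1.55% of all. TATAAA, the core of the TATA box, was in 3 (6.67%) against 12.4%. All 3 motifs were searched on both strands (TGACGTCA reads the same on each), and none contains another. A match is a description of these letters and not of a factor bound there.

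No member passed an adjusted p of 0.05 in limma (0 of 44, lowest 0.638 for Snap25), where 8 of all 12903 genes passed, or 0.062%. At an unadjusted p under 0.05, 1 member was higher in KO (Rab3c) and 1 lower (Snap25), against 4.69% and 2.79% of all genes. The KO and WT arrays did not overlap for 2 members higher in KO (Slc17a6, Rims3) and 3 lower (Syn2, Syt1, Dnm1), against 9.56% and 7.13% of all genes. A mean difference of at least 1.5-fold was found for 2 higher (Slc17a6, Rims3) and 1 lower member (Slc17a7), where 4.15% and 2.03% of all genes were that far apart. On average 29 of the 44 members, or 65.9%, were lower in KO and 15 higher, against 48.1% lower over all genes. The median difference was -0.11 over the members and 0.01 over all genes. The members' median deviation from the WT mean was -0.03, -0.03 and -0.18 on the 3 KO arrays, and 0.01, -0.05 and 0.06 on the 3 WT arrays.

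Without KO replicate 3, again no member passed (lowest adjusted p 0.142 in limma, for Slc17a6), where 53 genes, or 0.411%, did. At an unadjusted p under 0.05 were 3 members higher in KO (Slc17a6, Rims3, Rab3a) and 4 lower (Snap25, Syt7, Cplx2, Bin1), against 8.27% and 5.67% of all genes. No overlap was seen for 3 higher and 6 lower members, against 18.8% and 12.8% of all genes. None was 1.5-fold apart in this comparison, against 3.27% higher and 1.77% lower of all genes. The median difference was -0.05 over the members and 0.03 over all genes, and 26 of the 44 members were lower on average, against 44.3% of all genes. The difference of 13 members changed sign between the 2 sets of arrays.

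**Figure D1:**
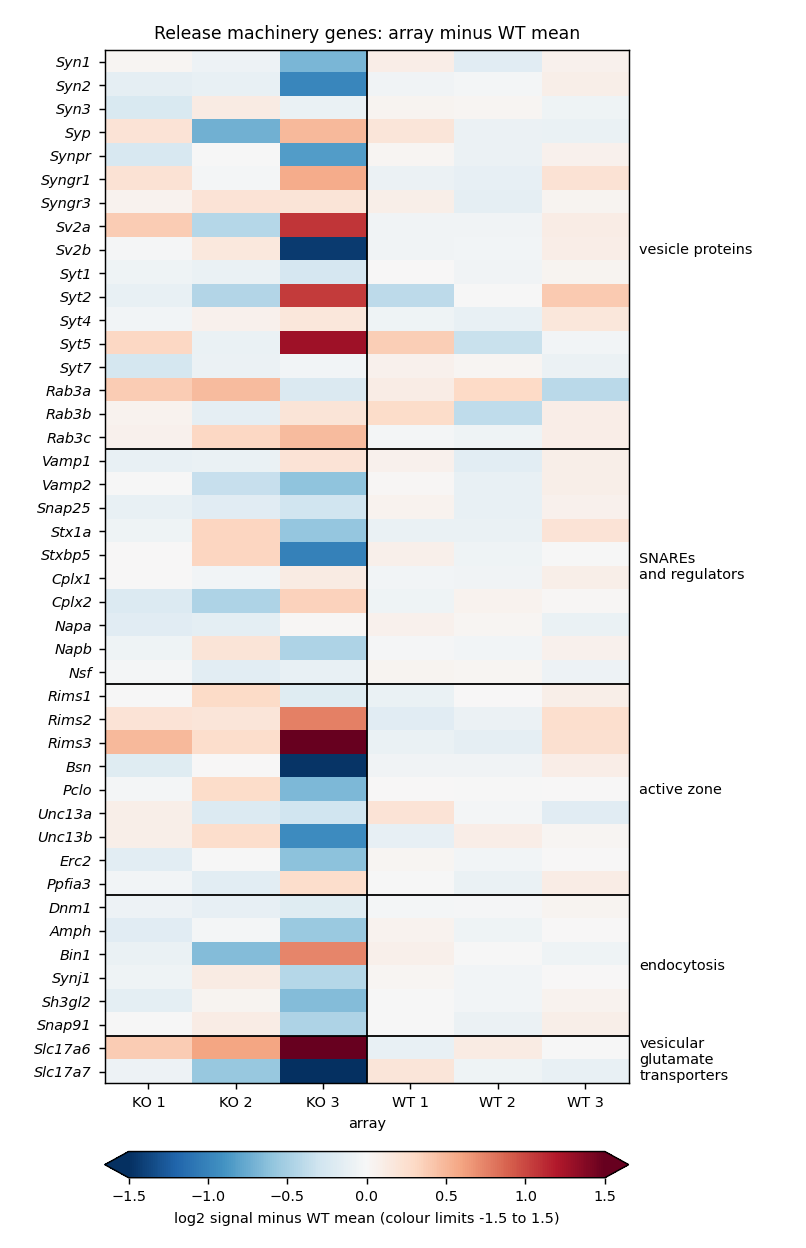
Log2 signal of each of the 44 genes (rows, grouped by class) minus its WT mean on each array (columns, 3 KO arrays left of 3 WT arrays); red is above and blue below the WT mean, and the colour scale ends at -1.5 and 1.5. KO replicate 3 holds the highest or lowest value of the 6 arrays for 36 of the 44 genes (81.8%), against 69.2% of all genes.

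KO replicate 3 was the outermost array for most members. It was also the outermost array for most genes measured. It held the highest of the 6 values for 14 members and the lowest for 22, together 81.8%, against 69.2% of all genes, and it was the KO array farthest from the WT mean for 35 of the 44, against 60.7% of all genes. On it 9 members lay at least 1 from the WT mean, 5 above (Slc17a6, Rims3, Syt5, Sv2a, Syt2) and 4 below (Slc17a7, Bsn, Sv2b, Stxbp5), and 10.1% of all genes did. No member did so on KO replicate 1, where the largest deviation was 0.487, or on KO replicate 2, where it was 0.716. The median standard error of a member's difference was 0.167 with all arrays and 0.0987 without this one. In bulk tissue, fewer cells of a type and less RNA per cell cannot be told apart. The part of the thalamus, CA1 and CA3 marker levels in these values was not tested.

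**Figure D2:**
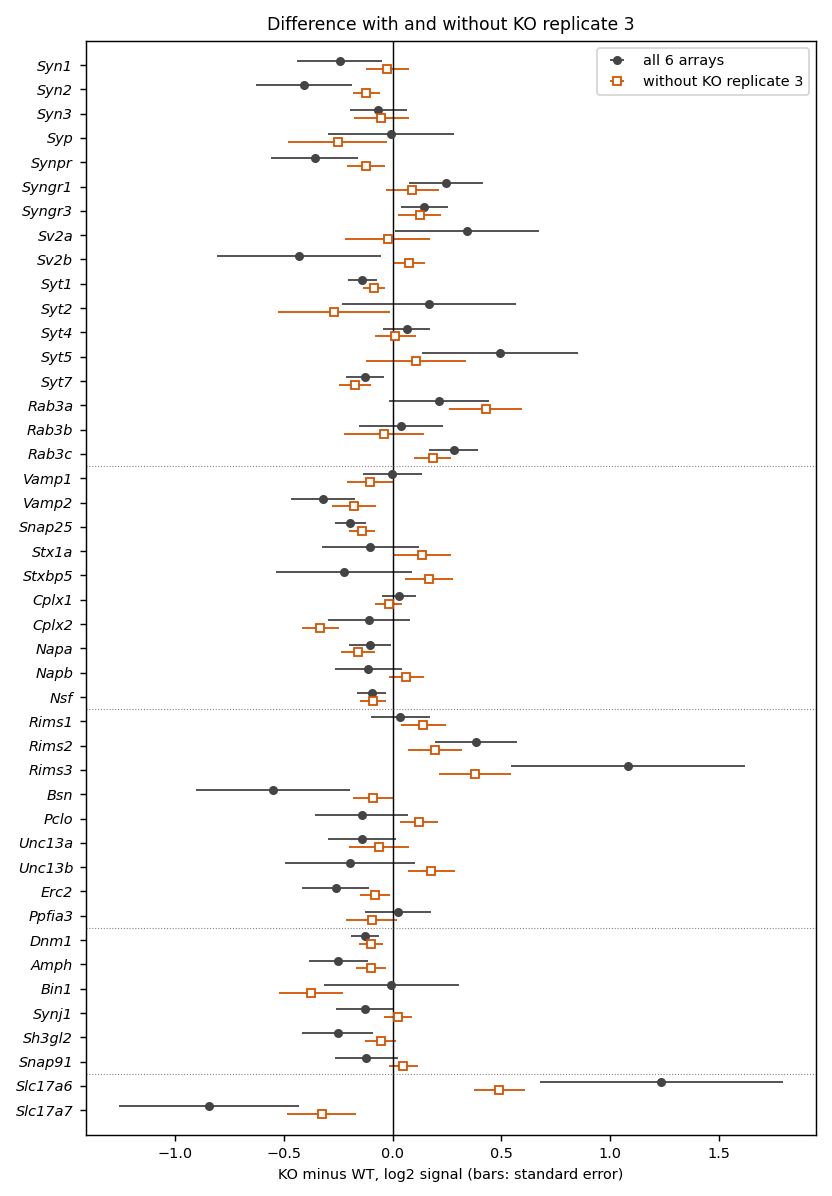
KO minus WT difference in log2 signal (x axis) of each of the 44 genes (y axis), with all 6 arrays (filled circles) and without KO replicate 3 (open squares); bars are standard errors from limma. The differences run from -0.84 to 1.24 with all arrays and from -0.38 to 0.49 without that array.

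The 2 vesicular glutamate transporters gave the highest and the lowest difference of the set. Slc17a6 had log2 signals of 9.88, 10.09 and 12.22 on the KO arrays, against 9.39, 9.62 and 9.49 on the WT arrays. Every KO array lay above every WT array, and KO replicate 3 lay 2.73 above the WT mean. The difference was 1.24 (standard error 0.56, adjusted p = 0.665 from limma), and without that array 0.49 (standard error 0.12, adjusted p = 0.142). Its other probe set read 8.07, 8.14 and 11.25 in KO and 7.76, 7.87 and 8.02 in WT, again without overlap, and differed by 1.27, and by 0.22 without KO replicate 3.

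Slc17a7 had 9.78, 9.29 and 7.99 on the KO arrays, against 10.04, 9.80 and 9.75 on the WT arrays. KO replicate 1 lay within the WT range and the other 2 KO arrays below it, so the groups overlapped. The difference was -0.84 (standard error 0.41, adjusted p = 0.673 from limma), or 1.80-fold lower in KO, and -0.33 (standard error 0.16) without KO replicate 3. Only 1 probe set reads this gene. On KO replicate 3 the signal of Slc17a6 was thus high where that of Slc17a7 was low, on the same array on which all 12 thalamus markers were at their highest. The 2 other vesicular transporters measured on the wider list, Slc32a1 (GABA and glycine) and Slc18a2 (monoamines), also had their highest value there, 11.78 and 8.69, against WT ranges of 9.77 to 9.98 and 6.92 to 7.24. Their differences were 0.78 and 0.73, and 0.20 and 0.26 without that array.

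**Figure D3:**
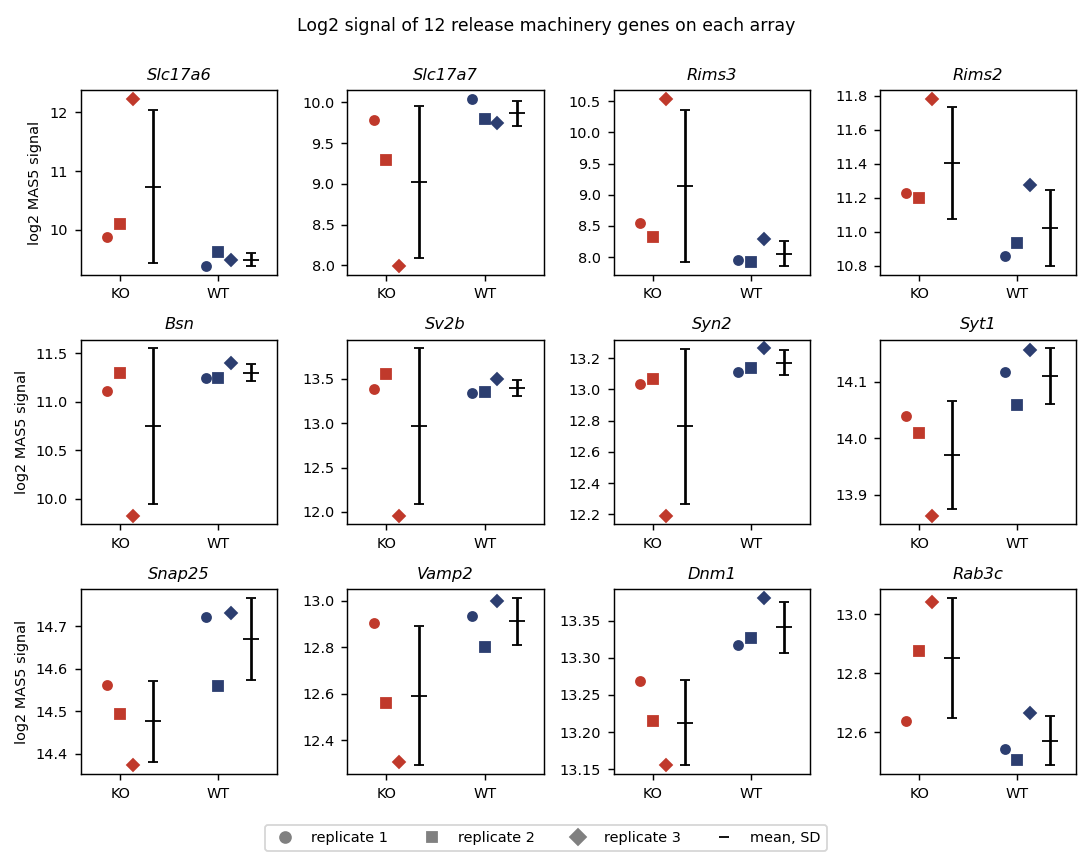
Log2 signal (y axis, a separate scale in each panel) of 12 genes on the 3 KO arrays (red, left) and 3 WT arrays (blue, right); the symbol gives the replicate number, and the bar beside each group its mean and SD (n = 3). Slc17a6 and Rims3 lie above all WT arrays on every KO array, and Syn2, Syt1 and Dnm1 below all WT arrays.

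Of the 9 active zone genes, 4 were higher and 5 lower on average in KO, with a median difference of -0.14 that was 0.12 without KO replicate 3. The long RIM proteins, such as that of Rims1, bind Rab3 and calcium channels at the release site. Rims3, a short RIM protein, had 8.54, 8.32 and 10.54 on the KO arrays and 7.96, 7.92 and 8.29 on the WT arrays. The groups did not overlap, but KO replicate 2 lay only just above the highest WT array. The difference was 1.08 (standard error 0.54, adjusted p = 0.673 from limma), or 2.11-fold, and 0.38 (standard error 0.17) without KO replicate 3. Its signal was dim, with a WT mean of 8.05. Its second probe set, too dim to pass the filter, went the other way, with a mean of 3.55 in KO and 4.87 in WT.

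Rims2 had 11.23, 11.20 and 11.78 on the KO arrays and 10.85, 10.93 and 11.28 on the WT arrays, a difference of 0.38 (standard error 0.19), and of 0.19 (standard error 0.12) without KO replicate 3. KO replicates 1 and 2 lay above 2 of the WT arrays and below the third. Of its 4 probe sets that passed the filter, 3 were higher in KO on average, and a pair of them did not overlap between groups (differences of 0.45 and 0.50, and of 0.34 and 0.22 without KO replicate 3), while the fourth differed by -0.13 and -0.46. Rims1, the most studied RIM, had 11.54, 11.83 and 11.37 in KO and 11.45, 11.56 and 11.64 in WT. Its values overlapped, with a difference of 0.03 (standard error 0.14), and of 0.14 without KO replicate 3. The other Rims1 probe set differed by -0.33 with all arrays.

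Bassoon and Piccolo are the large scaffolds of the active zone. Bsn had 11.12, 11.30 and 9.82 on the KO arrays and 11.25, 11.25 and 11.40 on the WT arrays. KO replicates 1 and 3 lay below all WT arrays, KO replicate 3 much the lower, and KO replicate 2 lay among them. The difference was -0.55 (standard error 0.35), and -0.09 (standard error 0.09) without KO replicate 3. The second Bsn probe set differed by -0.68, and by -0.29 without KO replicate 3, with no overlap in either case. Pclo had 12.43, 12.74 and 11.79 in KO against 12.46 to 12.47 in WT, below all WT arrays on KO replicates 1 and 3 and above them on KO replicate 2. The difference was -0.14, and 0.12 without KO replicate 3.

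The Munc13 proteins prime docked vesicles. Unc13a had 10.05, 9.76 and 9.67 on the KO arrays and 10.17, 9.94 and 9.80 on the WT arrays, a difference of -0.14 (standard error 0.16) with overlapping groups, and of -0.06 without KO replicate 3. For Unc13b the difference was -0.20 with all arrays and 0.18 without KO replicate 3, and for Erc2 (CAST, a scaffold) -0.26 and -0.08. The difference of Ppfia3 (liprin-α3), also a scaffold, was 0.02 and -0.10.

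Of the 10 SNAREs and regulators, 9 were lower on average in KO and 1, Cplx1, was higher, with a median difference of -0.11, and -0.10 without KO replicate 3, when 7 of 10 were lower. Snap25, the plasma membrane SNARE of release, had 14.56, 14.49 and 14.37 on the KO arrays and 14.72, 14.56 and 14.73 on the WT arrays. Only KO replicate 1 reached the lowest WT array. The difference was -0.19 (standard error 0.07, unadjusted p = 0.0294, adjusted p = 0.638 from limma), and -0.14 without KO replicate 3. Its other probe set differed by 0.10, and by -0.20 without that array.

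Vamp2 (synaptobrevin 2), the vesicle SNARE, had 12.91, 12.56 and 12.31 on the KO arrays and 12.93, 12.80 and 13.00 on the WT arrays. KO replicates 2 and 3 were below all WT arrays and KO replicate 1 among them, for a difference of -0.32 (standard error 0.15), and of -0.18 (standard error 0.10) without KO replicate 3. A second probe set of Vamp2 differed the other way, by 0.14, and by 0.10 without that array. Vamp1, its paralog, had 10.30, 10.32 and 10.62 in KO and 10.48, 10.26 and 10.50 in WT, with a mean of 10.41 in both groups and a difference of -0.11 without KO replicate 3. Stx1a, the syntaxin partner of both, had 11.28, 11.67 and 10.76 in KO and 11.24, 11.24 and 11.54 in WT. Its KO arrays lay on both sides of the WT arrays, and the difference of -0.10 (standard error 0.22) was 0.13 without KO replicate 3.

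Stxbp5 (tomosyn), an inhibitor of SNARE assembly, had 10.71, 11.03 and 9.70 on the KO arrays and 10.77, 10.63 and 10.70 on the WT arrays. Here KO replicate 3 was low alone, and the difference was -0.22 with it and 0.17 without it. Complexins clamp and promote fusion. Cplx1 differed by 0.03 (standard error 0.08), and by -0.02 without KO replicate 3. Cplx2 had 12.41, 12.15 and 12.95 in KO and 12.55, 12.66 and 12.63 in WT, with KO replicates 1 and 2 below and KO replicate 3 above all WT arrays. Its difference was -0.11 (standard error 0.19), and -0.33 (standard error 0.08, adjusted p = 0.160 from limma) without KO replicate 3. Nsf, the ATPase that takes SNARE complexes apart, and its adaptors Napa and Napb (α- and β-SNAP) differed by -0.10, -0.10 and -0.11, and by -0.09, -0.16 and 0.06 without KO replicate 3. All 4 Nsf probe sets that passed the filter were lower on average in KO, with and without KO replicate 3.

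The 17 vesicle proteins had no common direction, with 9 higher and 8 lower on average in KO and a median difference of 0.04, and of -0.02 without KO replicate 3. Synapsins coat vesicles and hold them in the reserve pool. Syn2 had 13.03, 13.06 and 12.19 on the KO arrays and 13.11, 13.14 and 13.26 on the WT arrays. The groups did not overlap, although KO replicates 1 and 2 lay within 0.14 of the WT mean. The difference was -0.41 (standard error 0.22, adjusted p = 0.682 from limma) and -0.12 (standard error 0.06) without KO replicate 3. All 5 of its probe sets that passed the filter were lower on average in KO, with differences of -0.13 to -0.52, and 4 of the 5 were lower without KO replicate 3.

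Syn1 had 11.24, 11.14 and 10.53 on the KO arrays and 11.31, 11.05 and 11.28 on the WT arrays. KO replicate 3 was below all WT arrays and the other KO arrays among them, giving -0.24 (standard error 0.19), and -0.02 without that array. Syn3 differed by -0.07 in its brightest probe set and by -0.36 in the other, where the groups did not overlap (unadjusted p = 0.0466), and by -0.05 and -0.28 without KO replicate 3. Syp (synaptophysin), the abundant membrane protein widely used as a synapse marker, had 11.14, 10.21 and 11.41 in KO and 11.12, 10.84 and 10.83 in WT. KO replicate 2 was its lowest array and KO replicate 3 its highest, and the mean difference was -0.01 (standard error 0.29), and -0.25 (standard error 0.23) without KO replicate 3. The related tetraspan proteins Synpr, Syngr1 and Syngr3 differed by -0.36, 0.25 and 0.15, with overlap between the groups in each, and by -0.12, 0.09 and 0.12 without KO replicate 3.

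SV2 proteins are vesicle glycoproteins, and the 2 measured here diverged on KO replicate 3. Sv2a had 11.32, 10.51 and 12.01 on the KO arrays and 10.88, 10.88 and 11.05 on the WT arrays, a difference of 0.34 (standard error 0.33) that was -0.02 without KO replicate 3. Sv2b had 13.38, 13.56 and 11.96 in KO and 13.34, 13.35 and 13.49 in WT, a difference of -0.43 (standard error 0.38) that was 0.07 without KO replicate 3. Both genes thus had their extreme value on 1 KO array, above the WT arrays for Sv2a and below them for Sv2b. The second Sv2b probe set read 9.65 on that array, against 11.65 to 11.86 on the WT arrays, and differed by -0.78, and by -0.13 without it.

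Synaptotagmins are the calcium sensors of release. Syt1, the sensor of fast release in hippocampal neurons, had 14.04, 14.01 and 13.86 on the KO arrays and 14.12, 14.06 and 14.16 on the WT arrays. All KO arrays lay below all WT arrays, with KO replicate 1 and WT replicate 2 nearly equal. The difference was -0.14 (standard error 0.07, adjusted p = 0.671 from limma) and -0.09 without KO replicate 3. Its 4 probe sets that passed the filter were all lower on average, with differences of -0.13 to -0.66, and 3 of the 4 were lower without KO replicate 3. Of the others, 1 also showed no overlap (-0.51, unadjusted p = 0.0325).

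Syt2, the fast sensor of brainstem and other subcortical synapses, had 7.22, 6.89 and 8.37 on the KO arrays and 6.94, 7.32 and 7.72 on the WT arrays. Syt5 had 7.99, 7.59 and 8.95 in KO and 8.05, 7.35 and 7.64 in WT. Both had their highest value on KO replicate 3 and overlapping groups otherwise, with differences of 0.17 and 0.49, and -0.27 and 0.11 without that array. These are the 2 members whose WT mean lay within 2 of the highest filter level (6.05), and their signals were dim. Rims3, with a WT mean of 8.05, lay just outside that limit. Syt4 differed by 0.06, and by 0.01 without KO replicate 3. Syt7, a sensor of asynchronous release and facilitation, differed by -0.13, and by -0.17 (unadjusted p = 0.0466 from limma) without KO replicate 3. Of its 4 probe sets that passed the filter, 3 were lower and 1 higher on average, with differences of -0.23 to 0.24.

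Rab3 GTPases link vesicles to the RIM proteins. Rab3c had 12.64, 12.88 and 13.04 on the KO arrays and 12.54, 12.51 and 12.67 on the WT arrays. Only KO replicate 1 fell below the highest WT array. The difference was 0.28 (standard error 0.11, unadjusted p = 0.0421, adjusted p = 0.659 from limma), and 0.18 without KO replicate 3. Of the 4 Rab3c probe sets that passed the filter, 3 were higher and 1 lower on average, with differences of -0.08 to 0.30. Without KO replicate 3, 2 were higher and 2 lower. Rab3a, the main neuronal form, differed by 0.21 (standard error 0.23), but through a probe set of the type that can read related sequences. Its other probe set differed by -0.13, and without KO replicate 3 the 2 were 0.43 and -0.17. For Rab3b the difference was 0.04 (standard error 0.19), and -0.04 without KO replicate 3.

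The 6 endocytosis genes were all lower on average in KO, with a median difference of -0.13, and 4 of 6 were lower (median -0.08) without KO replicate 3. Dnm1 (dynamin 1), the GTPase that cuts vesicles from the membrane, had 13.27, 13.21 and 13.15 on the KO arrays and 13.32, 13.33 and 13.38 on the WT arrays. The groups did not overlap and all 6 values lay close together. The difference was -0.13 (standard error 0.06, adjusted p = 0.673 from limma) and -0.10 without KO replicate 3, and the second Dnm1 probe set differed by 0.13 and -0.60.

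Amphiphysins bring dynamin to curved membrane. Amph differed by -0.25 (standard error 0.14), and by -0.10 without KO replicate 3, and Bin1 (amphiphysin 2) by -0.01 (standard error 0.31). Bin1 had 10.46, 9.91 and 11.29 in KO and 10.63, 10.55 and 10.50 in WT, so that its KO arrays lay on both sides of the WT arrays. The difference without KO replicate 3 was -0.38 (unadjusted p = 0.0328 from limma). Its other probe set past the filter differed by 0.36 with all arrays. Both were lower on average in KO without KO replicate 3. Bin1 is also a gene of oligodendrocytes, whose 7 measured markers (of 8) had median deviations of 0.10, 0.22 and 0.37 on KO replicates 1, 2 and 3. The part of these markers in the Bin1 values was not tested. Synj1 (synaptojanin, a lipid phosphatase), Sh3gl2 (endophilin A1) and Snap91 (AP180, a clathrin adaptor) differed by -0.13, -0.25 and -0.12. All 3 were lowest on KO replicate 3 and differed by 0.02, -0.06 and 0.05 without it.

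**Figure D4:**
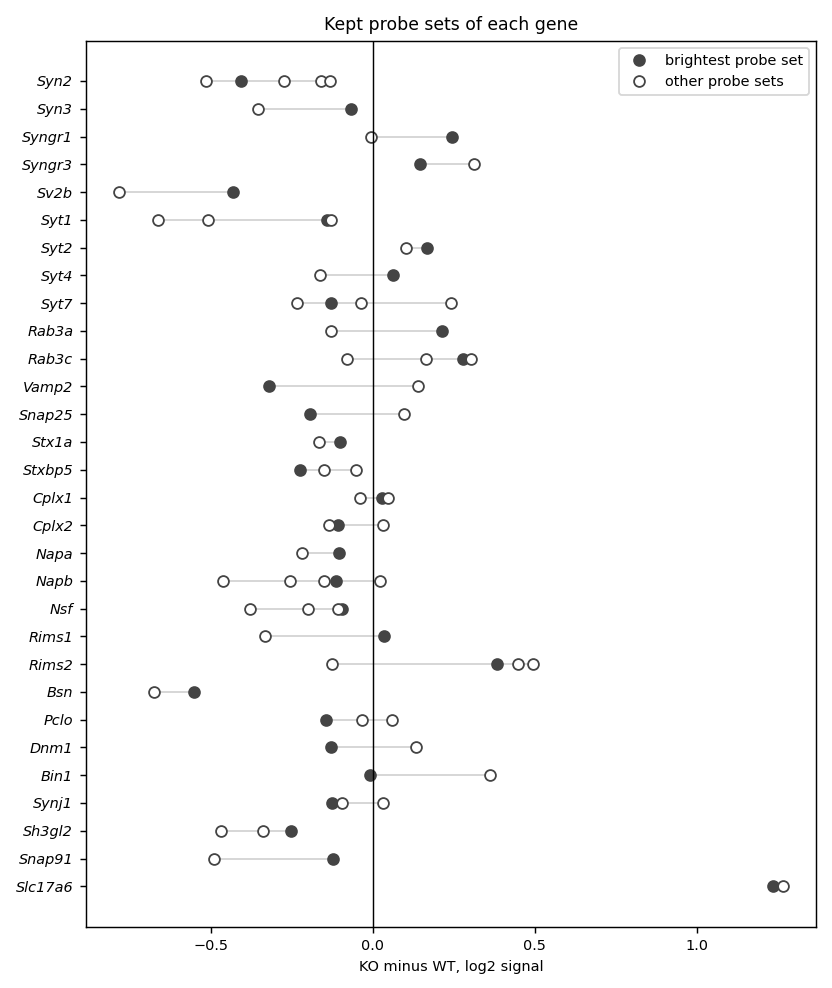
KO minus WT difference in log2 signal (x axis) of every probe set that passed the filter for the 30 genes with more than 1 (y axis); filled circles are the brightest probe set of a gene and open circles the others. The probe sets of 14 genes lie on 1 side of 0 and those of 16 genes on both sides.

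Probe sets of the same gene often went different ways. Of the 30 members with more than 1 probe set past the filter, 11 had all of them lower in KO on average, 3 (Slc17a6, Syngr3, Syt2) had all higher, and 16 had both. Without KO replicate 3 the counts were 10, 3 (Slc17a6, Stxbp5, Pclo) and 17. None of the 96 member probe sets passed an adjusted p of 0.05 in limma over 27408 probe sets (lowest 0.776, and 0.215 without KO replicate 3), where 6, or 0.0219%, passed in all. At an unadjusted p under 0.05 were 2 higher and 3 lower, against 3.12% and 3.06% of all probe sets, and without overlap 5 higher and 10 lower, against 7.37% and 7.83%. On average 64 of the 96 were lower in KO, and 65 without KO replicate 3. The share over all probe sets is not given here, so these 2 counts have no comparison. Probe sets of a gene share its transcript and are not replicates.

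A wider list held 103 further genes: vesicle proteins, SNAREs and regulators, active zone and endocytosis genes, and other vesicular transporters. The 90 of them measured had a median difference of -0.04. With all arrays, 35 were higher and 55 lower (61.1%) on average in KO, against 48.1% lower over all genes. Without KO replicate 3 the median was 0.0004 and 46 were higher and 44 lower (48.9%), against 44.3% lower over all genes. None passed the adjusted threshold (lowest 0.562 in limma). At an unadjusted p under 0.05 were 3 higher (3.33%) and 4 lower (4.44%), against 4.69% and 2.79% of all genes. Without KO replicate 3 these counts were 4 (4.44%) and 7 (7.78%), against 8.27% and 5.67% of all genes. Doc2b and Doc2a, calcium sensors related to synaptotagmin, had the smallest p and differed in opposite directions. Doc2b had 10.50, 10.57 and 9.98 on the KO arrays against 11.18, 11.28 and 10.79 on the WT arrays, a difference of -0.73 (standard error 0.20, unadjusted p = 0.00693). Doc2a had 8.86, 9.21 and 8.65 on the KO arrays against 8.05, 8.04 and 8.45 on the WT arrays, a difference of 0.72 (standard error 0.20, unadjusted p = 0.00715). For neither did the groups overlap, and without KO replicate 3 the differences were -0.55 and 0.85.

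Syt9, a calcium sensor, had 7.83, 7.70 and 9.55 on the KO arrays against 6.93, 7.09 and 7.09 on the WT arrays, a difference of 1.32 that was 0.73 without KO replicate 3. The other 4 under this p were Lin7a, an active zone and junction scaffold (0.51, and 0.25 without KO replicate 3), and the SNARE-related Stx3 (-0.46 and -0.32), Stxbp6 (-0.35 and -0.27) and Stx6 (-0.34 and -0.22). Stxbp6 is also on the list of dentate granule cell markers, of which 9 of 10 were lower on average in KO, and 10 of 10 without KO replicate 3. Among the endocytosis genes of the wider list, 21 of 22 measured, none had an unadjusted p under 0.05 (lowest 0.0535, for Dnm3, a dynamin, at 0.43, and 0.23 without KO replicate 3).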

How the data were processed

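Hippocampal RNA was hybridized to Affymetrix mouse arrays, 3 KO and 3 WT. The authors deposited log2 signals per probe set, for which their processing notes give MAS5 and affy and no version. On each array the trimmed mean of the linear signal was between 497.49 and 498.23 (2% of probe sets left out at each end). The methods also name GeneSpring, a removal of probes with Absent calls and a 1.5-fold limit. Detection calls were not used here.

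A probe set was retained if it exceeded the 40th percentile on 3 or more of the 6 arrays. A table of GEO's platform annotation gave 1 gene for 34945 probe sets, several for 932 and none for 9160. The brightest retained probe set stood for a gene. The difference of KO and WT came from limma 3.58.1 (lmFit, eBayes with trend) under R 4.3.3, with Benjamini-Hochberg adjustment over all genes or probe sets. An exact permutation test of 3 against 3 reaches no lower than 0.1 and was not used. The fit was tested on simulated data.

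Members, classes, the wider list and the markers were chosen with earlier results of these data known. Values on every array are given for members with an unadjusted p under 0.05, without overlap, or with a KO array at least 1 from the WT mean, and for 14 chosen by name. Rims2, Pclo, Cplx2 and Bin1 were added after their values were seen. From the wider list, up to 4 genes per class with the smallest p could be named. Alternatives were other scalings, filters, variance models and gene rules, an offset of 16 signal units, the replicate number as a block, and each array left out. Promoters and motif counts came from RefSeq sequences of GRCm38.p6.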

Additional observations from a re-analysis of the deposited data

How the results depend on the processing

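No member passed an adjusted p of 0.05 under any of the 16 alternatives run. No member probe set did under those fitted to probe sets, which leave out the averaging of probe sets. The lowest adjusted p of a member was 0.081 in limma, with gene-by-gene array weights (added after seeing the data). That setting called 221 of all genes, against 8 in the reported fit and 0 with no variance trend. The default array weights could not be fitted, as they did not converge. The difference of 23 members kept its sign throughout, and that of 21 changed sign under at least 1 alternative. The fit with no variance trend and the fit with the replicate block leave every difference unchanged, so they could not change a sign. The dim gene Syt2 had no value with the filter at the 60th percentile. Precision is bounded by the 3 arrays of each group.

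The replicate numbers are shared between KO and WT, but nothing ties a KO sample to a WT sample. The deviations of same-numbered samples from their group means correlated by -0.04, 0.07 and 0.13. Those of differently numbered KO and WT samples correlated by -0.16 to 0.20. With the replicate number as a block, 4 genes and 0 members passed. In this balanced layout the block leaves the differences and the overlap of the groups unchanged by construction. The 2 members higher and 3 lower without overlap, and the median difference of -0.11, are therefore those of the reported fit. Only the standard errors and p-values could change.

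Median centring left 1 member lower without overlap, with Cplx1 at -0.0025 and Ppfia3 at -0.007. Averaging the probe sets of a gene gave 3 members at least 1.5-fold lower, with Syt4 at -0.0497, Rims1 at -0.15, Dnm1 at 0.0019 and Bin1 at 0.18. Quantile normalization put Syp at 0.0169, Vamp1 at 0.0006 and Bin1 at 0.0033. With gene-by-gene array weights, 0 members were at least 1.5-fold higher and 0 lower, the median over the members was -0.0288, and Syp was at 0.0609, Syt2 at -0.0261, Rab3b at -0.0035, Stx1a at 0.0005, Stxbp5 at 0.0009, Unc13b at 0.0965 and Ppfia3 at -0.0345. The cause of these changes was not tested. For these settings the shares over all genes were not counted, so the member counts have no comparison.

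Leaving out each array in turn gave 2 to 6 members higher and 3 to 12 lower without overlap, where fewer arrays by construction leave fewer chances to overlap. Over all genes, 18.8% were higher and 12.8% lower without overlap when KO replicate 3 was left out. For the other arrays the shares over all genes were not counted, so the member counts cannot be set beside them. The higher count was 4 without KO replicate 1, 4 without KO replicate 2 and 6 without WT replicate 3. The lower count was 8, 12 and 6 without KO replicates 1, 2 and 3, and 9 and 7 without WT replicates 2 and 3. At least 1.5-fold higher were 0 (without KO replicate 3) to 4 members (without KO replicate 2), and lower 0 (without KO replicate 3) to 3 (without KO replicate 1 or 2). Without KO replicate 3, 3.27% and 1.77% of all genes were that far apart, and here too the other shares were not counted. The active zone median ran from -0.20 to 0.12, the last without KO replicate 3. Single differences ran from -0.16 to 0.0121 for Syn3, -0.25 to 0.35 for Syp, -0.0229 to 0.73 for Sv2a, -0.73 to 0.074 for Sv2b, -0.27 to 0.47 for Syt2, -0.15 to 0.17 for Rab3b, -0.11 to 0.0548 for Vamp1, -0.32 to 0.13 for Stx1a, -0.50 to 0.17 for Stxbp5, -0.0189 to 0.0758 for Cplx1, -0.33 to 0.0685 for Cplx2 and -0.26 to 0.0628 for Napb. They ran from -0.0918 to 0.14 for Rims1, -0.35 to 0.12 for Pclo, -0.43 to 0.18 for Unc13b, -0.10 to 0.12 for Ppfia3, -0.38 to 0.31 for Bin1, -0.25 to 0.0249 for Synj1 and -0.23 to 0.0483 for Snap91.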

Other observations

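The 14 member probe sets that did not pass the filter had mean log2 signals of 1.12 to 6.26 on the KO arrays and 0.67 to 5.90 on the WT arrays. Among them, a Vamp1 probe set read 5.76, 5.13 and 7.87 on the KO arrays against 5.40, 6.18 and 5.60 on the WT arrays. The second Rims3 probe set read 2.28, 3.26 and 5.12 on the KO arrays against 4.61, 5.41 and 4.58 on the WT arrays. Both had their highest KO value on KO replicate 3, above all WT arrays for Vamp1 and within the WT range for Rims3.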
